A study of Sus scrofa with 6 samples.

Results

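Telomerase and the proteins that bind telomeres were followed through the reprogramming of pig fibroblasts. The 9 genes were TERT, TERF1, TERF2, TERF2IP, POT1, TINF2, ACD, RIF1 and CTC1, chosen by name from the 18007 genes of the expression table. Of these, 7 were listed under their symbol, and POT1 and TERF2IP were listed by identifier only and were found through a table that pairs identifiers with symbols. All 9 had a mean of at least 0.5 FPKM (fragments per kilobase of gene and 1e+06 fragments) and entered the test, as did 12428 genes in all.

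RNA was measured in 3 porcine embryonic fibroblast lines (PEF5, PEF7 and PEF8) and in the 3 induced pluripotent stem cell lines made from them (piPSC5, piPSC7 and piPSC8), with 1 library per line. The PEFs were grown from ear tips of embryonic day 90 embryos of a Large White boar and a Meishan sow. Each piPSC line came from picked colonies of the PEF line of the same number after infection with doxycycline-dependent lentiviral vectors for Oct4, Sox2, Klf4 and c-Myc, and it was kept in doxycycline on mouse feeder cells. A table of values per gene does not separate pig from mouse fragments, or a vector's factors from the pig genes. Totals were 15146576 to 17836510 fragments in PEFs and 11010629 to 15050204 in piPSCs.

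The labelled cell types were checked against their markers. All 9 fibroblast markers were lower in piPSCs, with a summed level of 5438 to 8502 FPKM in PEFs and 231 to 424 FPKM in piPSCs. The summed level of 9 pluripotency markers was 0.142 to 0.207 FPKM in PEFs and 3.13 to 9.26 FPKM in piPSCs, and 0 of the 2 that could be tested passed the test. SOX2 was listed at 3.01, 2.49 and 0.129 FPKM in piPSC5, piPSC7 and piPSC8, and LIN28B at 2.51, 0.281 and 8.90 FPKM. POU5F1, which encodes Oct4, was at 0, 0.155 and 0.0839 FPKM and NANOG at 0, 0.0919 and 0 FPKM, so most defining markers were at or near 0 in cells labelled pluripotent. The paper likewise reports low endogenous Oct4, Nanog, Sall4 and Esrrb mRNA in its piPSCs, but relatively high Sox2 and Lin28b. It describes these lines as dox-dependent and incompletely reprogrammed, with positive staining for Oct4 and alkaline phosphatase. Summed markers of keratinocytes, chondrocytes, endothelium, leukocytes and skeletal muscle stayed under 5 FPKM in every library, except muscle at 14.2 FPKM in piPSC7, nearly all of it DES. In bulk RNA, fewer cells of a type and less RNA per cell cannot be told apart. DDX3Y, on chromosome Y, had 3439 and 4207 fragments in PEF8 and piPSC8 and 0 in the 4 libraries of lines 5 and 7, so for the 9 genes values are also given without line 8 where a call changes. The study describes the PEF lines as male and the labels give no sex, and the absence of these fragments in lines 5 and 7 goes against that description.

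Telomeres are the repeats that cap chromosome ends. They shorten as cells divide unless telomerase adds new repeats, copying them from a template inside its own RNA with the reverse transcriptase TERT. Most somatic cells hold little TERT, and its renewed expression is a known mark of cells brought to pluripotency. Shelterin, a complex of 6 proteins, coats the repeats: TERF1 and TERF2 bind the double strand, POT1 binds the single-stranded end, TERF2IP (Rap1) rides on TERF2, and TINF2 and ACD (TPP1) hold the complex together, with ACD also recruiting telomerase. CTC1 is the large subunit of CST (CTC1, STN1 and TEN1), which ends telomerase action and helps DNA polymerase alpha fill in the other strand. RIF1, first found as a telomere protein of yeast, mainly acts in mammals on replication timing and on the choice of repair at broken ends.

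**Figure D1:**
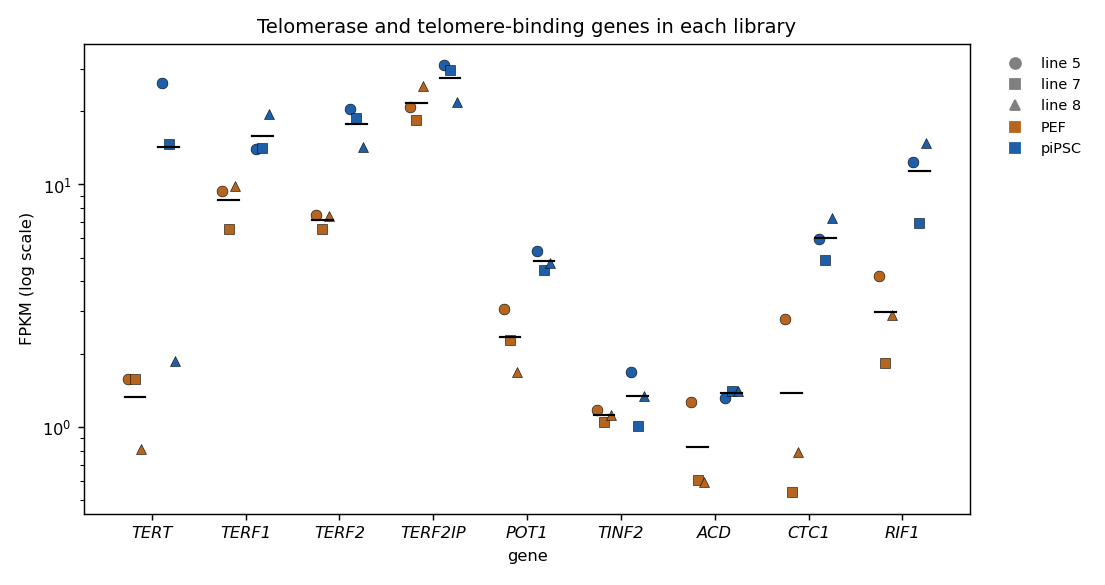
FPKM of each of the 9 genes (log axis) in the 3 PEF libraries (brown) and the 3 piPSC libraries (blue), with the line shown by the marker shape and the mean of each group as a bar. TERT in piPSC8 lies at 1.87 FPKM, close to the PEFs and far under piPSC5 at 26.2 FPKM. TERF1, TERF2, POT1, RIF1 and CTC1 stand apart from PEFs in every line, whereas ACD in PEF5 lies just under the piPSCs.

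A pair of sequences shows what the enzyme and its gene look like in the pig, read from the Sscrofa11.1 assembly. The first is the start of the telomerase RNA, a row named only Telomerase-vert (ENSSSCG00000023605, a noncoding RNA of 430 bp at chr13:108426066-108426495 on the minus strand) that is not among the 9 genes and was picked after its values were seen. Capitals mark the match to CTAACCCTAA, at bases 35 to 44, letters of the complement of the TTAGGG repeat that were searched for as its template. The exact ends of the template were not determined. The stretch covers bases 1 to 89 (chr13:108426407-108426495).
telomerase RNA: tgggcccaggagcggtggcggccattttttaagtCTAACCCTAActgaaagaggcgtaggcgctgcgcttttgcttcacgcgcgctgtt
The second is the promoter of TERT, the gene with the widest spread between piPSC lines among the 9, as the 250 bases before the RefSeq start of the gene (chr16:79258341-79258590, plus strand). Capitals mark GC-boxes (GGGCGG, or CCGCCC on the other strand), letters that the factors SP1 and KLF4 are known to favour.
TERT promoter: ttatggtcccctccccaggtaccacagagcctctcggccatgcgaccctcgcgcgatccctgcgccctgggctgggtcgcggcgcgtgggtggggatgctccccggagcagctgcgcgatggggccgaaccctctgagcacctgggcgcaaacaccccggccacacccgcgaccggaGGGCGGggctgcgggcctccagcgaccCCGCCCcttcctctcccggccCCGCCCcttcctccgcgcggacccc

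RefSeq starts were found for all 9 genes. The TERT window was 75.6% G and C and held 3 GC-boxes, which began 73, 46 and 25 bases before the start. A GC-box was present in 45.9% of 19527 protein-coding promoters of the same length. The E-box CACGTG, which reads the same on both strands and is bound by MYC, had 0 matches in the TERT window, against a share of 6.4% of promoters with one. Among the other members, TERF1 and TINF2 had 2 GC-boxes each, POT1 and ACD had 1 each, and TERF2, TERF2IP, RIF1 and CTC1 had 0. No E-box of these letters lay in any of the 9 windows, and no match says only that these letters are not in this window.

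Of the 9 genes, 5 (TERF1, TERF2, POT1, RIF1 and CTC1) rose in piPSCs by limma on log2 of FPKM + 1 (called where the Benjamini-Hochberg adjusted p over all genes tested was under 0.05), and 0 fell, also at an unadjusted p under 0.05. Across all genes tested, 30.3% were called higher and 21.5% lower. At 2-fold or more, 3 members were higher (TERF2, RIF1 and CTC1), against 20.2% of all genes higher and 16.7% lower. The median log2 fold change of the 9 genes was 0.82, and that of all tested genes was 0.20. In 7 of the 9, all piPSC values lay above all PEF values, as they did for 37.3% of all genes, and in 0 of the 9 all piPSC values lay below all PEF values, against 26.8% of all genes. TERF2IP and TINF2 were the 2 genes whose groups overlapped. The count of 5 fell to 3 without PEF7 (TERF2, RIF1 and CTC1) and to 3 without line 8 (TERT, TERF2 and RIF1).

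The scale of the FPKM values bears on these counts. FPKM summed over all genes to 337074 to 348943 in PEFs and to 420498 to 437853 in piPSCs. When libraries were instead scaled by their median ratio across genes, the median of all genes moved from 0.20 to -0.02, and the share of higher genes among all calls moved from 58.5% to 46.3%. That share was 43.5% with equal sums and 46.9% with voom, a limma method for counts, on the fragments recovered from the FPKM steps. TERF2, RIF1 and CTC1 were called under all 3 of these scalings, TERF1 under 0 and POT1 under voom alone.

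TERT (ENSSSCG00000017118, chr16:79258607-79274333, plus strand) carries the catalytic activity of telomerase. It was listed at 1.59, 1.59 and 0.817 FPKM in PEF5, PEF7 and PEF8, from 96, 90 and 42 fragments. In piPSC5, piPSC7 and piPSC8 it was at 26.2, 14.7 and 1.87 FPKM, from 1337, 595 and 70 fragments. The groups did not overlap, but piPSC8 lay just above the highest PEFs, and the highest piPSC library held 14.0 times the lowest. Within lines, TERT was 16.5 times its PEF level in line 5, 9.29 times in line 7 and 2.29 times in line 8. The group means were 1.33 ± 0.444 and 14.3 ± 12.2 FPKM (SD, n = 3 lines each).

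On the log2 scale TERT changed by 2.22 ± 0.79 (SE), the largest estimate of the 9, and it did not pass the test (limma adjusted p = 0.0523). With the line number as a block, which the shared origin of the lines gives, limma's adjusted p was 0.0334. Without piPSC8, the log2 fold change was 3.17 with a limma adjusted p of 0.00171, and without both libraries of line 8 it was 3.00 with a limma adjusted p of 0.00396. Over the 15 alternatives the adjusted p ran from 0.00171 to 0.146, and 4 of them called TERT.

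The telomerase RNA row was at 0.391, 2.09 and 1.23 FPKM in PEF5, PEF7 and PEF8, from 3, 15 and 8 fragments. It reached 24.4, 14.7 and 8.45 FPKM in piPSC5, piPSC7 and piPSC8, from 158, 75 and 40 fragments. The order of the piPSC lines was the same as for TERT, but piPSC8 lay well above the PEFs. By limma it rose by 2.87 on the log2 scale (adjusted p = 0.00270), and all 15 alternatives called it. The libraries were selected for poly-A tails, which most telomerase RNA does not keep, so these fragments cover an unknown part of it. A second row named Telomerase-vert, at chr1:57646795-57647152, held 0 matches to the template letters searched for and at most 2 fragments in any library.

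Of 15 genes in the table on a list for telomerase assembly and RNA maturation, 11 rose and 1 fell. Of all genes tested, 30.3% rose and 21.5% fell. The list also holds regulators, among them PINX1, a telomerase inhibitor that rose. The median log2 fold change of the 15 genes was 1.42, against 0.20 for all genes tested. GAR1, a protein of the box H/ACA particle that holds telomerase RNA, was at 34.6, 19.8 and 15.2 FPKM in PEFs and at 152, 122 and 143 FPKM in piPSCs (log2 fold change 2.61). Dyskerin, the product of DKC1 and the core of the same particle, was at 16.5, 10.0 and 10.7 FPKM in PEFs and at 75.3, 56.1 and 70.2 FPKM in piPSCs (log2 fold change 2.37). In both, piPSC8, the line with little TERT, lay between the other two. Box H/ACA proteins also serve ribosomal RNA and are not specific to telomerase.

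TEP1, a telomerase-associated protein also found in vault particles, was the gene of this list that fell. It went from 9.75, 11.6 and 8.02 FPKM in PEFs to 2.65, 4.69 and 2.61 FPKM in piPSCs (log2 fold change -1.34, limma adjusted p = 0.00565). WRAP53, which brings telomerase to Cajal bodies, was not called, at 6.95 to 9.57 FPKM in PEFs and 10.9 to 12.2 FPKM in piPSCs (limma adjusted p = 0.0636, and 0.0460 without PEF8). NOP10, another protein of the particle, was at 1.54 to 1.76 FPKM and 1.24 to 2.91 FPKM, with overlapping groups.

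**Figure D2:**
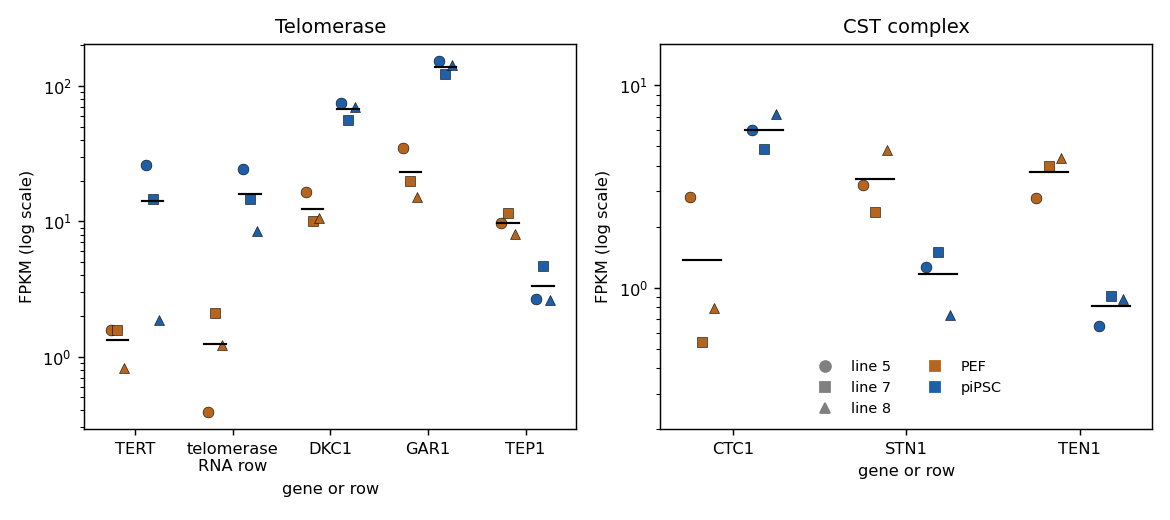
FPKM (log axis) by library, with group means as bars. TERT, the telomerase RNA row and 3 genes of the telomerase assembly list are on the left, and the 3 CST subunits are on the right. CTC1 is higher in piPSCs than in PEFs in every line, whereas STN1 and TEN1 are lower in every line.

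Among 14 factors known to act on TERT transcription, 13 could be tested, of which 3 rose and 4 fell. Of all genes tested, 30.3% rose and 21.5% fell. MEN1 and GABPA were among the higher genes, and the rows of MYC, ETS2, KLF4 and MXD1 were lower. The piPSCs also carried c-Myc and Klf4 on the doxycycline-dependent vectors. How far the MYC and KLF4 rows count those supplied factors was not tested. MYC was at 50.9, 58.9 and 6.95 FPKM in PEFs and at 1.42, 1.05 and 0.267 FPKM in piPSCs (log2 fold change -3.98, limma adjusted p = 0.00634). MEN1, whose product menin represses TERT in some cells, was at 7.10 to 8.36 FPKM in PEFs and 15.5 to 21.5 FPKM in piPSCs (log2 fold change 1.14). The list's median was 0.40.

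TERF1 (ENSSSCG00000006184, chr4:62797000-62831464, minus strand) binds the double-stranded repeat and limits telomere length. It was at 9.39, 6.55 and 9.85 FPKM in PEF5, PEF7 and PEF8 and at 14.1, 14.1 and 19.5 FPKM in piPSC5, piPSC7 and piPSC8. Every piPSC value was above every PEF value, and the ratios within lines were 1.50, 2.16 and 1.98 for lines 5, 7 and 8. limma put the change at 0.82 ± 0.22 (log2, SE) with an adjusted p of 0.0207. The call was lost without PEF7 (limma adjusted p = 0.0598), without piPSC8 (0.0534) and without line 8 (0.0554). TNKS, the tankyrase that takes TERF1 off telomeres, was at 3.16 to 4.56 FPKM in PEFs and 5.71 to 8.09 FPKM in piPSCs (log2 fold change 0.68, limma adjusted p = 0.0361), a call that 5 of 15 alternatives kept (adjusted p from 0.0323 to 0.176) and that was lost without PEF7, PEF8, piPSC5, piPSC8 or line 8.

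TERF2 (ENSSSCG00000002762, chr6:17605871-17634604, plus strand) keeps chromosome ends from being joined. It was at 7.47, 6.58 and 7.40 FPKM in PEF5, PEF7 and PEF8. In piPSC5, piPSC7 and piPSC8 it was at 20.5, 18.7 and 14.2 FPKM, a change that limma put at 1.19 ± 0.19 (log2, SE) with an adjusted p of 0.00276. The within-line ratios were 2.74, 2.85 and 1.92, lowest in line 8. All 15 alternatives called it, with adjusted p-values from 0.00247 to 0.0141. The last 239 bp of its span overlap TMED6 on the same strand, which was at 0.316 FPKM on average in PEFs and 2.94 FPKM in piPSCs. The part of TMED6 fragments in the TERF2 value was not tested.

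The ratio of TERF2 to TERF1 (both in FPKM) differed between piPSC lines. It was 0.796, 1.00 and 0.752 in PEF5, PEF7 and PEF8 and 1.46, 1.33 and 0.731 in piPSC5, piPSC7 and piPSC8. Line 8 thus kept TERF1 above TERF2 on both sides, and in lines 5 and 7 TERF2 was the higher one after reprogramming.

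TERF2IP (ENSSSCG00000002703, chr6:12014285-12057342, minus strand) had the highest level of the 9 in both groups. It was at 20.9, 18.5 and 25.3 FPKM in PEF5, PEF7 and PEF8 and at 30.9, 29.6 and 21.8 FPKM in piPSC5, piPSC7 and piPSC8. Lines 5 and 7 were higher after reprogramming and line 8 was lower, so the groups overlapped (a change of 0.33 ± 0.20 on the log2 scale, SE, with a limma adjusted p of 0.204). Its span shares 776 bp with KARS on the opposite strand, and KARS rose from a mean of 62.8 to 183 FPKM (limma adjusted p = 0.00229). The library kit does not mark strand, so fragments of that stretch cannot be told apart.

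POT1 (ENSSSCG00000016597, chr18:22885671-23022156, plus strand) covers the single-stranded end. It was at 3.06, 2.29 and 1.68 FPKM in PEF5, PEF7 and PEF8 and at 5.35, 4.44 and 4.73 FPKM in piPSC5, piPSC7 and piPSC8. The groups did not overlap, and the ratio was 1.75 in line 5, 1.94 in line 7 and 2.81 in line 8. By limma it changed by 0.82 ± 0.22 (log2, SE; adjusted p = 0.0214), and 9 of 15 alternatives called it. The call was lost without PEF7 (limma adjusted p = 0.0613), PEF8 (0.0592), piPSC5 (0.0748) or line 8 (0.0838). GPR37, which shares 2410 bp with POT1 on the same strand, was at 0 to 0.0617 FPKM in PEFs and at 0.870, 0.629 and 9.57 FPKM in piPSC5, piPSC7 and piPSC8, and its part in the POT1 value was not tested.

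TINF2 and ACD, the bridging subunits, were the lowest of shelterin. TINF2 (ENSSSCG00000001994, chr7:75056804-75067918, plus strand) was at 1.18, 1.05 and 1.12 FPKM in PEF5, PEF7 and PEF8 and at 1.68, 1.01 and 1.34 FPKM in piPSC5, piPSC7 and piPSC8. Its groups overlapped, and its change of 0.14 ± 0.22 (log2, SE; limma adjusted p = 0.618) turned slightly negative under the 3 other scalings. The whole TINF2 span lies inside GMPR2 on the opposite strand, at 3.58 to 4.97 FPKM in PEFs and 5.45 to 6.68 FPKM in piPSCs, so the 2 genes cannot be separated well.

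ACD (ENSSSCG00000029590, chr6:28277614-28280405, minus strand) was at 1.28, 0.610 and 0.594 FPKM in PEF5, PEF7 and PEF8 and at 1.31, 1.41 and 1.42 FPKM in piPSC5, piPSC7 and piPSC8. PEF5 lay just under the piPSCs, and the 3 piPSC lines were close to each other. The values rest on 15 to 38 fragments per library, the fewest of the 9 genes. Its change of 0.40 ± 0.24 (log2, SE) did not pass the test (limma adjusted p = 0.193). ACD shares 2090 bp with CARMIL2 on the opposite strand, which was at 0.683 to 2.07 FPKM in PEFs and 0.214 to 0.356 FPKM in piPSCs.

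The 6 shelterin genes summed to 41.6 ± 5.39 FPKM in PEFs and 68.7 ± 5.46 FPKM in piPSCs (SD, n = 3). In every line the share of TERF2IP was lower and that of TERF2 higher in piPSCs. In line 8, TERF1 gained more than TERF2, from 21.4% in PEF8 to 30.9% in piPSC8. TERF2IP made up 48.2% to 55.1% of the sum in PEFs and 34.5% to 42.7% in piPSCs. TERF2 made up 16.1% to 18.5% in PEFs and 22.6% to 27.8% in piPSCs. Neither share overlapped between the groups. For FPKM values, all piPSCs lay above all PEFs in 37.3% of genes tested and below them in 26.8%. TERF1 was 19.0% and 20.4% in piPSC5 and piPSC7 but 30.9% in piPSC8, against 18.4% to 21.7% in PEFs. POT1, TINF2 and ACD together stayed the small part, each under the share of TERF1, with ACD at 1.99% ± 0.864 in PEFs and 2.02% ± 0.234 in piPSCs. These shares are of RNA per length and are given as a description, with no test.

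**Figure D3:**
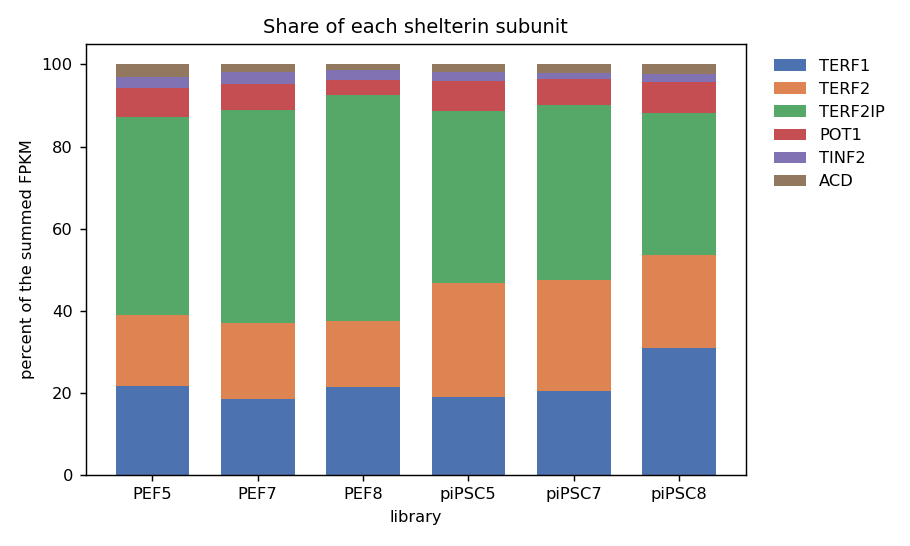
Stacked bars of the percent of the summed FPKM of the 6 shelterin genes that each gene made up, by library. TERF2 (orange) widens from 16.1% to 18.5% in PEFs to 22.6% to 27.8% in piPSCs, and TERF1 (blue) reaches 30.9% in piPSC8.

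CTC1 (ENSSSCG00000026818, chr12:53424177-53454080, minus strand) was at 2.80, 0.539 and 0.794 FPKM in PEF5, PEF7 and PEF8. It was at 5.99, 4.87 and 7.25 FPKM in piPSC5, piPSC7 and piPSC8. PEF5 was the highest PEF but still under every piPSC line, and the ratio was 2.14 in line 5, 9.03 in line 7 and 9.13 in line 8. limma put the change at 1.67 ± 0.38 (log2, SE; adjusted p = 0.0108), called in 14 of 15 alternatives and lost without line 8 (limma adjusted p = 0.0645).

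The other subunits of CST went the other way. STN1 fell from 3.21, 2.36 and 4.76 FPKM in PEF5, PEF7 and PEF8 to 1.27, 1.50 and 0.737 FPKM in piPSC5, piPSC7 and piPSC8 (log2 fold change -1.02, limma adjusted p = 0.0229). With the line as a block, the limma adjusted p of STN1 was 0.0604, and it was between 0.0538 and 0.0626 without PEF5, PEF8, piPSC5 or piPSC8 and 0.0965 without line 8. TEN1 fell from 2.79, 4.01 and 4.36 FPKM to 0.647, 0.910 and 0.885 FPKM (log2 fold change -1.37, limma adjusted p = 0.00344), and all 15 alternatives called it. In FPKM, CTC1 was below STN1 and TEN1 in PEF7 and PEF8 and above both in every piPSC line.

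Over all 17 genes of telomere replication and end processing, 10 rose and 2 fell, STN1 and TEN1, with a median log2 fold change of 0.88. Without line 8, 6 were called higher. EXO1, an exonuclease that resects DNA ends, had the largest change of the list, from 1.76, 0.0751 and 0.166 FPKM in PEFs to 10.4, 9.06 and 13.3 FPKM in piPSCs (log2 fold change 2.96, limma adjusted p = 0.00162). RTEL1, the helicase that opens telomeric loops, was at 5.14, 2.45 and 4.36 FPKM in PEFs and at 12.0, 8.76 and 12.0 FPKM in piPSCs (log2 fold change 1.29, limma adjusted p = 0.00839). DCLRE1B (Apollo), a nuclease bound by TERF2, was not called, at 4.40 to 10.3 FPKM in PEFs and 8.99 to 10.3 FPKM in piPSCs.

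RIF1 (ENSSSCG00000016395, chr15:774191-832010, minus strand) was at 4.22, 1.84 and 2.90 FPKM in PEF5, PEF7 and PEF8. It was at 12.4, 6.97 and 14.8 FPKM in piPSC5, piPSC7 and piPSC8, with no overlap. Line 7 was the lowest in both groups, and the ratio was 2.93 in line 5, 3.78 in line 7 and 5.11 in line 8. RIF1 thus rose by 1.62 ± 0.34 (log2, SE; limma adjusted p = 0.00851). All 15 alternatives called it, with adjusted p-values from 0.00618 to 0.0458.

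Of 8 tested partners of RIF1 and 53BP1, 5 rose (PAXIP1, PPP1CC, CDC7, DBF4 and TP53BP1) and 0 fell, also at an unadjusted p under 0.05, with a median of 0.81. By comparison, 30.3% of all genes tested rose and 21.5% fell. Only 3 of the 8 partners were called higher without PEF7, without piPSC5 or without line 8. PAXIP1, an adaptor at broken DNA, went from 4.27, 2.95 and 3.36 FPKM in PEFs to 16.5, 8.95 and 15.0 FPKM in piPSCs (log2 fold change 1.65). It was lowest in line 7 in both groups, as RIF1 was. TP53BP1, the 53BP1 protein that recruits RIF1 to breaks, was at 5.36 to 8.97 FPKM in PEFs and 11.0 to 13.2 FPKM in piPSCs (log2 fold change 0.67, limma adjusted p = 0.0362), a call that 5 of 15 alternatives kept (adjusted p from 0.0297 to 0.192) and that was lost without line 8 and without any library but PEF8.

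Some cells keep telomeres without telomerase, by recombination (alternative lengthening). Of 14 tested genes of that route and of telomeric chromatin, 5 rose (ATRX, TOP3A, NR2F2, RAD51AP1 and ASF1B) and 1 fell. Their median log2 fold change was 0.68. Of all genes tested, 30.3% rose and 21.5% fell, and the list's share of higher genes lay near the former. The list's count of higher genes was 3 without PEF7, PEF8, piPSC5 or line 8. RAD51AP1, a recombination factor, was at 2.59, 0.183 and 0.416 FPKM in PEFs and at 6.65, 6.01 and 6.80 FPKM in piPSCs (log2 fold change 2.04). DAXX, the partner of ATRX in placing histone H3.3, fell from 24.8, 23.2 and 45.4 FPKM to 18.2, 13.0 and 17.6 FPKM (log2 fold change -0.84, limma adjusted p = 0.0456), and 7 of 15 alternatives kept that call (adjusted p from 0.0164 to 0.119), which was lost without line 8 and without any library but PEF7. ZSCAN4, known for telomere lengthening in mouse embryonic stem cells, was listed at 0.0136 to 0.0301 FPKM in PEFs and at 0 in all 3 piPSC libraries. The PEF values came from 2, 1 and 2 fragments, so the gene was near 0 in both groups and was not tested.

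Most genes of proliferation were also higher in piPSCs. Of 11 in the table, 10 rose and 0 fell, against 30.3% and 21.5% of all genes tested. RRM2 was the exception, and the list's median was 2.27. CCNB1 had the largest change (log2 fold change 3.54) and CDK1 the smallest among those called (log2 fold change 1.32, limma adjusted p = 0.0355), and 4 of 15 alternatives kept the call of CDK1 (adjusted p from 0.0153 to 0.127), which was lost without line 8 and without any library but PEF5. Without line 8, 7 genes of the list were called higher. Their median log2 of FPKM + 1 was 3.97, 1.33 and 2.23 in PEF5, PEF7 and PEF8 and 5.46, 5.72 and 5.70 in piPSC5, piPSC7 and piPSC8. PEF5 was the highest PEF on this list, as it was for CTC1, RIF1, POT1, ACD, TINF2 and TERF2. The part of proliferation in those values was not tested.

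Line by line, 3 of the 9 genes were at least 2-fold higher in line 5, 5 in line 7 and 3 in line 8, and 0 were at least 2-fold lower, taken on FPKM + 1. Across all tested genes, 21.9%, 24.9% and 23.8% were at least 2-fold higher in lines 5, 7 and 8, and 18.6%, 17.2% and 23.8% were at least 2-fold lower. In all 3 lines, 7 of the 9 were higher, as were 42.9% of all genes. The median log2 ratio of the 9 was 0.64, 1.00 and 0.86, against 0.21, 0.24 and 0.08 for all genes. With 1 library on each side of a line, these ratios have no replicate check.

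**Figure D4:**
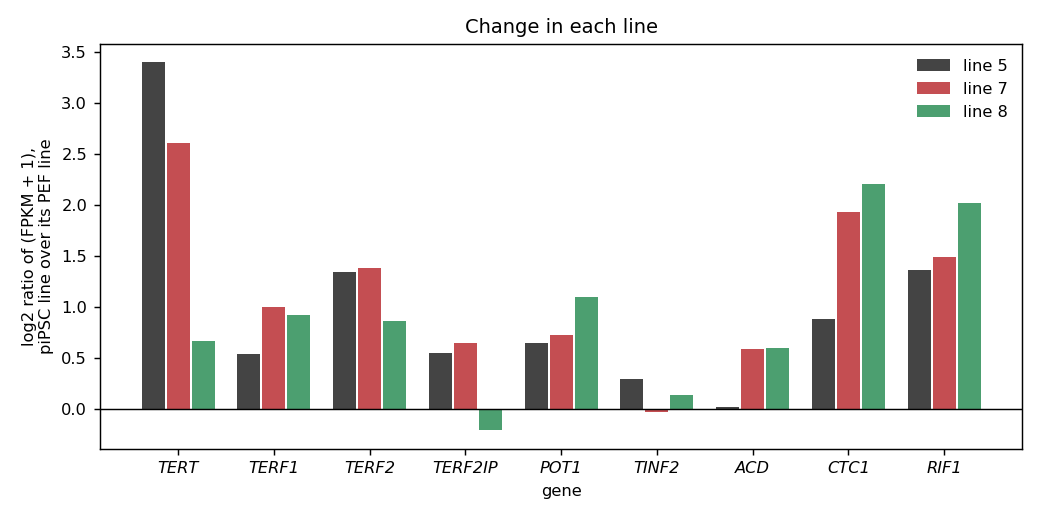
Log2 ratio of (FPKM + 1) of each piPSC library over the PEF library of the same line, for the 9 genes, with 1 bar per line. TERT has its largest bar in line 5 and a short one in line 8, CTC1 and RIF1 have their largest in line 8, and TERF2IP in line 8 lies below 0 at -0.21.

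In PEFs, TERF2IP stood alone at the top (mean 21.6 FPKM), followed by TERF1 (8.60) and TERF2 (7.15), whose ranges overlapped. A gap separated TERF2 from RIF1 (2.99), and from RIF1 down through POT1 (2.34), CTC1 (1.38), TERT (1.33), TINF2 (1.12) and ACD (0.827 FPKM) each gene overlapped its neighbour. In piPSCs the order was TERF2IP (27.4), TERF2 (17.8), TERF1 (15.9), TERT (14.3), RIF1 (11.4), CTC1 (6.04), POT1 (4.84), ACD (1.38) and TINF2 (1.35 FPKM). Neighbours there overlapped except for TERF2IP over TERF2 and POT1 over ACD. By group mean TERT thus moved from rank 7 to rank 4, with a piPSC range that spanned most of the other genes. In piPSC8, TERT at 1.87 FPKM stayed below POT1 at 4.73 FPKM.

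**Figure D5:**
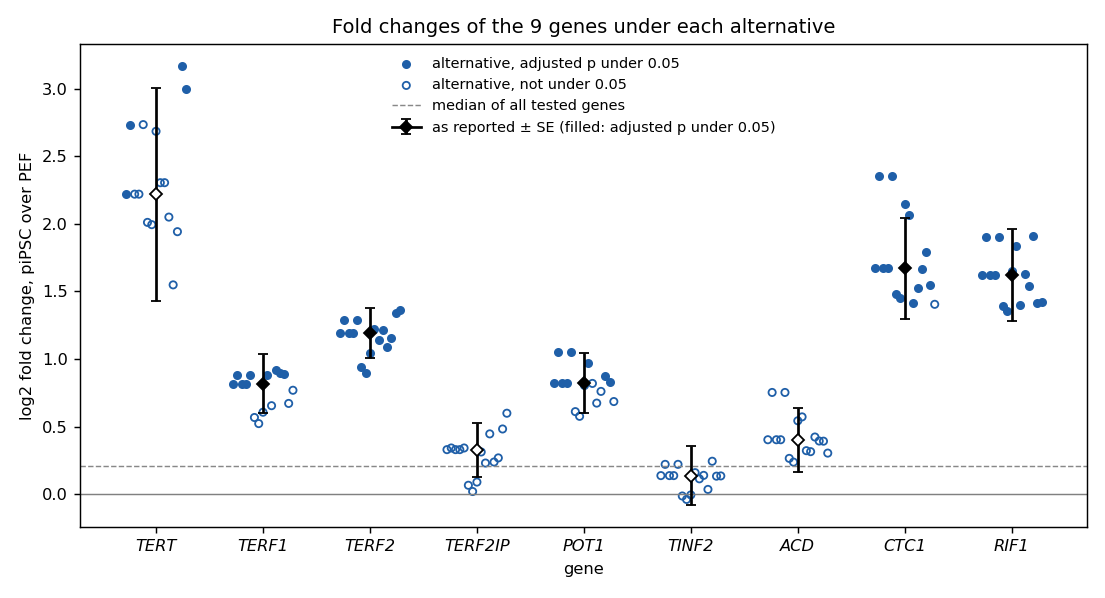
Log2 fold change of piPSC over PEF for the 9 genes as reported (diamonds with SE, filled where the adjusted p is under 0.05) and under 15 other settings (circles, filled likewise), with the median of all tested genes (0.20) as a dashed line. TERF2 and RIF1 are filled throughout, TERT ranges from 1.55 to 3.17 with 4 filled circles, and TINF2 crosses 0.

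The genes whose pattern over the 6 libraries was most like that of TERT were named by the smallest root mean square difference of centred log2(FPKM + 1) among tested genes. They were a 135-bp row named TMSB4X on chromosome 8 (ENSSSCG00000022232, difference 0.216), ABCA5 (0.264) and TMEM74 (0.283). The TMSB4X row had 23 and 10 fragments in piPSC5 and piPSC7 and 0 in the other libraries. ABCA5, a lipid transporter, had 8 to 10 fragments in each PEF library and was at 16.8, 6.12 and 0.690 FPKM in piPSC5, piPSC7 and piPSC8. TMEM74 was at 0.0643 to 0.0904 FPKM in PEFs and at 8.13, 4.39 and 0.342 FPKM in piPSC5, piPSC7 and piPSC8. Their fall from piPSC5 over piPSC7 to piPSC8 follows from the choice of genes most like TERT in these same libraries and is no separate result.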

How the data were processed

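The authors deposited FPKM values per gene for 6 poly-A RNA-seq libraries, read from both ends over 150 bp. The submitters' processing notes list HISAT2 2.1.0, HTSeq 0.6.0, Bowtie2 2.2.3 and Sscrofa11.1, with no roles. How reads shared between overlapping genes were counted is not given in the sources used here. All FPKM values of the 18007 genes were whole multiples of 1 fragment (relative tolerance 1e-09), so totals and fragments were recovered, and genes held 98.9% to 99.3% of each total.

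limma 3.58.1 in R 4.3.3 (eBayes with a trend, two-sided) compared piPSCs with PEFs on log2(FPKM + 1), keeping 12428 genes that averaged 0.5 FPKM or more. Benjamini-Hochberg adjustment ran over all of them. The fit was also run on simulated data with no shift of scale between groups, which does not bear on the effect of scaling. Fold changes on log2(FPKM + 1) understate the change of low genes. With 3 libraries against 3, an exact permutation test cannot go below p = 0.1, so none is given. Each library is a separate line. The paper names an unpaired test for its data in general and set RNA-seq libraries side by side line by line, and here the fit was made without a block, with the block as an alternative. Lines pair by origin, and the correlation of deviations from group means was 0.0921, 0.0946 and 0.0800 within lines 5, 7 and 8, and -0.121 to 0.0553 between lines.

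Members and gene lists were chosen with earlier results of these data known. Named genes were the 9 members, from each list the called genes with the largest and smallest log2 fold change and up to 4 direct partners of a member, and the 3 genes most like TERT. Other genes, including MYNN and ACTRT3, overlapping genes, DDX3Y and the telomerase RNA rows, were named after their values were seen. NHP2, SHLD1, SHLD2, SHLD3 and MCM5 found no row. An item of these lists is not reported here. Promoters and motifs were read from the assembly and RefSeq annotation with pysam 0.24.0, and tables were made in Python 3.11.15.

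Alternatives were the line as a replicate block, a pseudocount of 0.1, other filters on low values, 2 rescalings, limma's voom on recovered fragments, and leaving out each library in turn. Leaving out line 8 was added after the values were seen.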

Additional observations from a re-analysis of the deposited data

Results flagged for a closer look

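TERF2IP moved in opposite directions in different lines. Its log2 ratio of (FPKM + 1), piPSC over PEF, was 0.55 in line 5 and 0.65 in line 7 but -0.21 in line 8, where both libraries hold more than 600 fragments of the gene. TINF2 also differed in sign, with log2 ratios of 0.30 in line 5, -0.029 in line 7 and 0.14 in line 8. These differences between lines were not tested, since each line has 1 library per cell type.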

How the results depend on the processing

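The count of higher members, 5 as reported, was 3 after rescaling to the median ratio, 3 with equal sums, 3 without line 8 (an alternative added after seeing the data) and 3 to 5 with 1 library left out. The replicate block, which pairs the lines, called 6 members and changed the calls of TERT (adjusted p = 0.0334 from limma) and STN1 (0.0604 from limma) and no other call among the 9 members, the telomerase RNA row and the list genes given with an adjusted p. A pseudocount of 0.1 also called TERT (limma adjusted p = 0.0478). The telomere replication list had 6 higher genes without line 8 (10 as reported), and the alternative lengthening list had 3 without line 8 and 3 to 7 with 1 library left out (5 as reported). RIF1 and 53BP1 partners had 3 with equal sums, 3 without line 8 and 3 to 5 with 1 library left out (5 as reported). The log2 fold change of TINF2 reversed to -0.014 with the median ratio, -0.040 with equal sums and -0.0065 with voom. That of NOP10 reversed to -0.064, -0.10 and -0.15 in the same order and ran from -0.12 (without piPSC7) to 0.28 with 1 library left out. DCLRE1B ran from -0.044 (without PEF7) to 0.49 with 1 library left out. The cause was not tested. The other scalings cost TERF1 its call (limma adjusted p = 0.0732 with the median ratio, 0.0950 with equal sums and 0.0818 with voom), and 2 of them cost POT1 its call (0.0548 and 0.0858). MYC lost its call with voom (limma adjusted p = 0.0631). Among the 9 genes, ACD rests on the fewest fragments (15 to 38 per library).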

Other observations

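The genes around TERT on chromosome 16 did not move as one block. CLPTM1L, whose span ends 10107 bp before that of TERT, was at 63.3 ± 8.20 FPKM in PEFs and 59.2 ± 7.85 FPKM in piPSCs (SD, n = 3), a change of -0.09 on the log2 scale (limma adjusted p = 0.661). On the other side, SLC12A7, whose span begins 60991 bp after that of TERT, was at 5.67 to 6.88 FPKM in PEFs and at 0.0882, 1.75 and 0.0804 FPKM in piPSC5, piPSC7 and piPSC8 (log2 fold change -2.28, limma adjusted p = 0.00415). TRIP13, a protein of the mitotic checkpoint, rose from 10.3, 3.23 and 5.16 FPKM to 35.1, 27.8 and 39.6 FPKM (log2 fold change 2.39, limma adjusted p = 0.00264). LPCAT1, an enzyme of phospholipid synthesis 81820 bp before TERT, rose from 6.06 ± 2.24 to 19.6 ± 3.89 FPKM (SD, n = 3; log2 fold change 1.58, limma adjusted p = 0.00540). Its piPSC lines had the order of TERT, but piPSC8, at 17.0 FPKM, lay above the highest PEF at 7.44 FPKM. NKD2 fell, with 12.4 to 48.5 FPKM in PEFs and 0.0646 to 0.143 FPKM in piPSCs (log2 fold change -4.52, limma adjusted p = 0.000673), and SLC6A3 had at most 3 fragments in any library. These neighbours, 3 on each side, were chosen after their values were seen.

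The telomerase RNA row lies 776 bp from ACTRT3 and 8693 bp from MYNN, genes that also lie beside the telomerase RNA gene in humans. MYNN was at 3.25 to 4.64 FPKM in PEFs and 4.66 to 5.56 FPKM in piPSCs, and ACTRT3 was at or under 0.182 FPKM in every library, well under the level of the RNA row in piPSCs.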
